A study of Mus musculus with 6 samples.

Results

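The proteasome is the protease that degrades proteins marked with ubiquitin, and the data described here are the mRNA levels of its genes in epididymal white adipose tissue (eWAT), a visceral fat depot next to the testis, of mice with lung cancer cachexia and of control mice. The members were chosen by name, as the protein-coding genes of the deposited count table whose symbol starts with Psma to Psmg and a number, without Psmb8, Psmb9 and Psmb10. The rule gave 47 of 54532 genes, of which 46 encode subunits, regulators or assembly factors of the proteasome. The remaining gene, Psmc3ip, takes its name from a subunit that its protein binds and is a factor of meiotic recombination. In the study, 3 male C57BL/6 mice were inoculated under the skin with cells of the Lewis lung carcinoma (LLC), a tumor line of mouse lung, and eWAT was harvested on day 21 together with eWAT of 3 control mice of the same strain. Mice were 6 to 10 weeks old when obtained, and a loss of over 20% of body weight defined cachexia. What the control mice received is not given in the sources used here. The model is 1 tumor line at 1 time point in males. The labels number the mice 1 to 3 in each group and do not say how they were housed or processed.

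RNA was sequenced as paired-end reads of 150 bases. Control replicates 1 to 3 had 18766846, 18475204 and 18855546 counts in total, and cachexia replicates 1 to 3 had 17278966, 15711022 and 14928766, all fewer than any control. Values of single mice are given in the order of these numbers throughout. Proteasome genes took between 0.331% and 0.400% of the counts of a mouse. Control replicate 1 stood apart from the other libraries, with a count in 24552 genes beside 22607 to 23038 in the others. The tissue label was checked with adipocyte markers. Their summed level was between 30709 and 46357 counts scaled to library size (CPM) in a mouse. Cfd had the highest FPKM of the list in every mouse. All 5 epididymis markers were too low to be tested. Adam7 among them had 61 counts in control replicate 1, 17 in cachexia replicate 1 and at most 4 in each other mouse. Levels of 1 gene between mice are given in CPM, scaled with the TMM factors of edgeR, and levels of different genes are compared in the deposited FPKM values, which also take the length of the gene into account.

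The 26S proteasome has a barrel, the 20S core, closed at its ends by the 19S regulatory particle. The outer rings of the barrel are built of alpha subunits (Psma genes) and gate the entrance. The inner rings are built of beta subunits (Psmb genes), some of which carry the proteolytic sites. The base of the 19S particle holds a ring of ATPases (Psmc genes) that unfolds substrates, and its lid holds the deubiquitinase Psmd14, which removes the ubiquitin chain. Alternative caps (Psme genes) and dedicated chaperones (Psmg genes and some Psmd genes) complete the set. In wasting muscle these genes are known for a joint rise that is driven by FoxO factors, and in fat the transcription factor Nfe2l1 is known to maintain their expression.

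A joint rise was not seen in eWAT. Of the 46 members tested, 1 rose and 5 fell in cachexia, and 40 did not pass the test (adjusted p under 0.05 from edgeR's quasi-likelihood test with Benjamini-Hochberg adjustment over 16003 genes). Psmc1, an ATPase of the base, rose, and Psmd14, Psmb2, Psma1, Psmd5 and Psmd6 fell. Among all genes tested, 9.0% were higher and 8.63% were lower, so that the share of members that fell was near the background (10.9%) and the share that rose was below it (2.17%). In DESeq2, 9 of the 46 members fell (19.6%) and 1 rose, beside 12.1% of all genes that were lower and 12.2% that were higher. DESeq2 made a larger share of false calls than edgeR on simulated counts, and limma-voom called the same 6 members as edgeR. On those counts DESeq2 also recovered more of the simulated log2 changes of 1 (48 of 100) than edgeR (24) or limma-voom (22). The simulation was a single set in which far fewer genes changed than were called in the data. The share of false calls depends on that number, so it may differ in these data. The fold change of the members was small. Their median log2 fold change was -0.15, beside -0.003 over all genes tested and -0.03 over protein-coding genes, and 82.6% of them lay within 0.5 of no change on the log2 scale, beside 60.1% of all genes tested. The standard error was also smaller, with a median of 0.13 for the members and 0.22 for all genes tested. In the comparison of single mice, the values of cachectic mice lay wholly below those of control mice in 19 of the 46 members and wholly above in 3. Over all genes tested these shares were 20.1% and 20.4%. Fewer cells of one type and less RNA per cell cannot be told apart in bulk tissue.

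**Figure D1:**
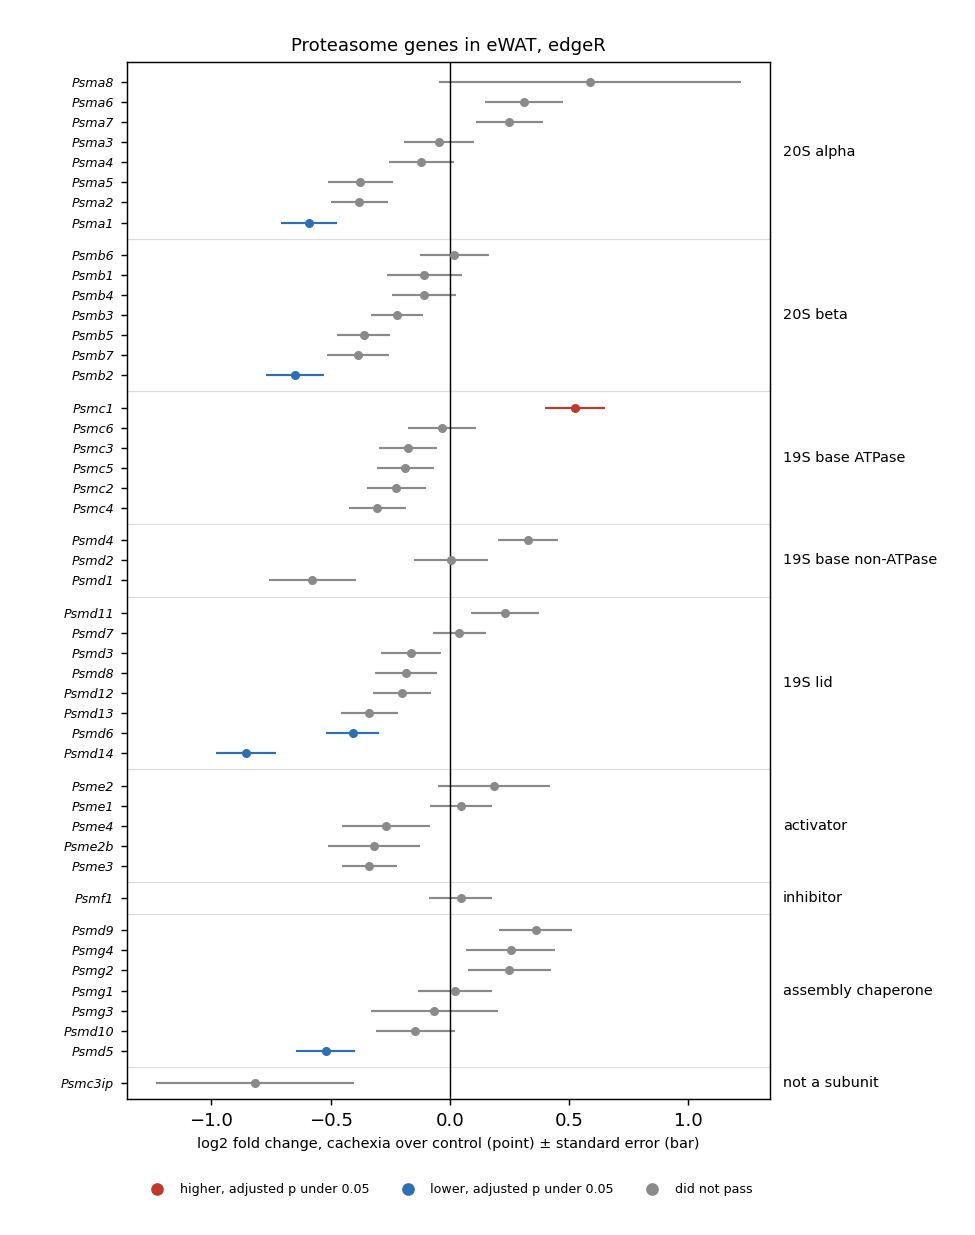
Log2 fold change (x axis, cachexia over control, 3 mice in each group) of the 46 members tested, grouped by their place in the proteasome. Points are edgeR estimates and bars 1 standard error. Psmc1 (0.53) is the member that rose, and Psmd14 (-0.85) lies farthest to the left of the members that fell.

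After scaling, the median level of the members was slightly lower in each cachectic mouse than in each control mouse, which was not tested. Their share of all counts overlapped between the groups, at 0.400%, 0.347% and 0.357% in control mice and 0.331%, 0.360% and 0.362% in cachectic mice. Relative to the mean of the controls, the median log2 value over the 46 members was 0.04, -0.04 and 0.02 in the control mice and -0.18, -0.25 and -0.08 in the cachectic mice. Cachexia replicate 3 was thus nearest to the controls, with 20 of 46 members above the control mean beside 14 and 13 in the other cachectic mice. The summed level of all members was 1464 ± 38.2 (SD, n = 3) FPKM in control mice and 1349 ± 41.6 (SD, n = 3) FPKM in cachectic mice, a difference of -7.84%. These sums are a description, and no test was made of them.

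The alpha subunits of the 20S core held 1 gene that fell among 8 tested (12.5%), beside 8.63% of all genes tested. This class and those below are small, and nothing is read from their shares. Psma1 fell. It had 146, 145 and 151 CPM in the controls and 91.6, 99.8 and 102 CPM in the cachectic mice. The groups did not overlap, and the spread within each was small beside the gap. The log2 fold change was -0.59 ± 0.12 (SE), with an adjusted p of 0.0152 (edgeR, Benjamini-Hochberg). Psma1 lies on chromosome 7 from 114264606 to 114276118 on the minus strand. Psma6 had the highest level of any member, with 87.7 ± 1.61 (SD, n = 3) FPKM in control mice and 108 ± 21.3 (SD, n = 3) FPKM in cachectic mice. Its log2 fold change of 0.31 did not pass (adjusted p = 0.218, edgeR), and cachexia replicate 2, at 165 CPM, set most of the spread in a group whose lowest mouse had 111 CPM. Psma2 and Psma5 had log2 fold changes of -0.38 each, with groups that did not overlap, and missed the threshold (adjusted p = 0.0635 and 0.0949, edgeR). Psma3 and Psma4 were within the spread between mice, with log2 fold changes of -0.04 and -0.12, and Psma7 stood at 0.25. Psma8, the alpha subunit of the spermatoproteasome of the testis, was near the limit of detection at 0.498 and 0.753 CPM in the control and cachexia groups, and its log2 fold change of 0.59 had a standard error of 0.63.

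Among the beta subunits 1 of 7 genes tested fell (14.3%), beside 8.63% of all genes tested. Psmb2 had 99.0, 85.3 and 89.2 CPM in the controls and 55.1, 61.8 and 57.4 CPM in the cachectic mice. All cachectic mice were below all control mice. The log2 fold change was -0.65 ± 0.12 (SE), with an adjusted p of 0.0118 (edgeR, Benjamini-Hochberg), and the gene lies on chromosome 4 from 126677630 to 126709714 on the plus strand. Psmb2 was the beta gene with the highest level in control mice, at 74.8 ± 5.95 (SD, n = 3) FPKM, and ranked behind Psmb4, Psmb5 and Psmb6 in cachectic mice, at 47.2 ± 2.67 (SD, n = 3) FPKM. The genes of the catalytic sites differed in their estimates, though no difference between them was tested. Psmb5, the chymotrypsin-like site, had 62.4, 59.5 and 62.7 CPM in the controls and 44.9, 50.7 and 48.2 CPM in the cachectic mice. The groups were apart, and the log2 fold change of -0.36 ± 0.11 (SE) was just short of the threshold (adjusted p of 0.0608 in edgeR). Psmb7, the trypsin-like site, had a log2 fold change of -0.38 (adjusted p = 0.0808, edgeR) and overlaps Nek6 on the other strand. Psmb6, the caspase-like site, had a log2 fold change of 0.02, with a 95% confidence interval from -0.32 to 0.35. Psmb2, the beta gene that fell, encodes a subunit without a proteolytic site, as do Psmb1, Psmb3 and Psmb4. The log2 fold changes of Psmb1, Psmb3 and Psmb4 were -0.11, -0.22 and -0.11. Psmb11, the beta subunit of the thymus, had 1 count in 1 control mouse and was not tested. The summed level of the beta genes was 351, 316 and 339 FPKM in the control mice and 278, 260 and 288 FPKM in the cachectic mice, with no overlap. That of the alpha genes overlapped between the groups, at 289 to 311 FPKM in control mice and 264 to 304 FPKM in cachectic mice.

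The base of the 19S particle held the only member that rose. It was 1 of the 6 ATPase genes (16.7%), beside 9.0% of all genes tested that rose. Psmc1, which encodes an ATPase of the ring also called Rpt2, had 117, 109 and 107 CPM in the controls and 152, 152 and 175 CPM in the cachectic mice. The lowest cachectic mouse was well above the highest control mouse. The log2 fold change was 0.53 ± 0.13 (SE), with a 95% confidence interval from 0.23 to 0.82 and an adjusted p of 0.0279 (edgeR, Benjamini-Hochberg). Psmc1 lies on chromosome 12 from 100110154 to 100123405 on the plus strand. The other ATPases did not pass the test. Psmc2, Psmc3, Psmc4, Psmc5 and Psmc6 all had negative estimates, from -0.30 for Psmc4 (adjusted p = 0.115, edgeR) to -0.03 for Psmc6. The summed level of the 6 ATPase genes was 256 ± 3.55 (SD, n = 3) FPKM in control mice and 254 ± 17.7 (SD, n = 3) FPKM in cachectic mice. Psmc1 made up 23.1%, 21.9% and 21.4% of this sum in the control mice and 31.5%, 31.5% and 32.0% in the cachectic mice. Psmc5 was the most abundant ATPase gene in control mice, at 70.0 ± 2.82 (SD, n = 3) FPKM, and Psmc1 in cachectic mice, at 80.7 ± 6.43 (SD, n = 3) FPKM. This share was chosen after the values were seen and carries no test.

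The other base subunits did not pass the test. Psmd1 and Psmd2 are the scaffolds on which ubiquitin receptors sit. Psmd1 had 130, 168 and 169 CPM in the controls and 99.0, 126 and 87.8 CPM in the cachectic mice. The groups lay close to each other without overlapping, and the log2 fold change of -0.58 had a standard error of 0.18 (adjusted p = 0.0648, edgeR). It overlaps Htr2b on the other strand and Gm21972. Psmd2 had the highest CPM of all members and the same mean in both groups, with 201 ± 15.1 (SD, n = 3) CPM in control mice and 201 ± 30.5 (SD, n = 3) CPM in cachectic mice (95% confidence interval of the log2 fold change from -0.36 to 0.36). Psmd4, a ubiquitin receptor, had a log2 fold change of 0.33 ± 0.13 (SE, adjusted p of 0.11 in edgeR), with 111, 117 and 113 CPM in control mice and 128, 153 and 148 CPM in cachectic mice. It was 1 of the 3 members whose cachectic mice were all above the controls, beside Psmc1 and the chaperone gene Psmd9.

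The lid held 2 of the 5 genes that fell, which is 25% of its 8 genes, beside 8.63% of all genes tested. Psmd14, the metalloprotease that cuts the ubiquitin chain from the substrate, fell most of all members tested. It had 78.8, 83.8 and 90.9 CPM in the controls and 43.1, 45.9 and 51.2 CPM in the cachectic mice. No cachectic mouse came near the controls. The log2 fold change was -0.85 ± 0.13 (SE), with a 95% confidence interval from -1.14 to -0.57 and an adjusted p of 0.00551 (edgeR, Benjamini-Hochberg), a change of -44.7%. Psmd14 lies on chromosome 2 from 61711694 to 61800376 on the plus strand. Its partner in the lid, Psmd7, which has the same fold without the catalytic residues, had 96.2, 90.7 and 96.6 CPM in the controls and 93.2, 100 and 98.0 CPM in the cachectic mice. The groups of Psmd7 overlapped, and the 95% confidence interval of its log2 fold change, from -0.22 to 0.30, did not reach the estimate for Psmd14. Divided by Psmd7 within each mouse, the FPKM of Psmd14 was 0.657, 0.741 and 0.755 in control mice and 0.371, 0.367 and 0.419 in cachectic mice, a ratio chosen after the values were seen.

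**Figure D2:**
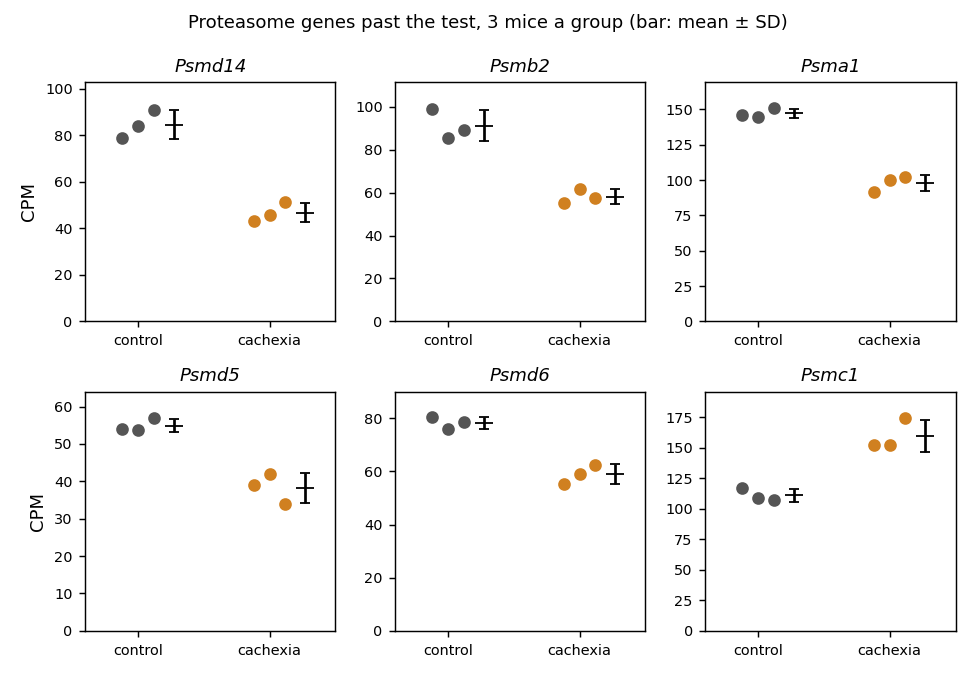
CPM (y axis, from 0) in each mouse of the 6 members past the adjusted threshold of 0.05 in edgeR. Points are single mice, in the order of their replicate numbers, and bars are the mean ± SD of 3 mice. Psmd14 lies between 78.8 and 90.9 in control mice and between 43.1 and 51.2 in cachectic mice, and the groups are apart in all 6 genes.

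Psmd6, a structural subunit of the lid, had 80.3, 75.8 and 78.6 CPM in the controls and 55.2, 59.1 and 62.5 CPM in the cachectic mice. The groups did not overlap, and its log2 fold change of -0.41 ± 0.11 (SE) was the smallest among the members that passed (adjusted p = 0.0428, edgeR with Benjamini-Hochberg adjustment). It lies on chromosome 14 from 14112174 to 14120984 on the minus strand. Among the other lid genes, Psmd13 had a log2 fold change of -0.34 (adjusted p = 0.0918, edgeR) and overlaps Sirt3 on the other strand. Psmd12, Psmd8 and Psmd3 stood at -0.20, -0.18 and -0.16, and Psmd11 had the most positive estimate at 0.23 (adjusted p = 0.291, edgeR). The lid gene with the highest level in control mice was Psmd8, at 42.6 ± 1.46 (SD, n = 3) FPKM. Psmd14 ranked between Psmd12 and Psmd6 in control mice, at 29.6 ± 2.13 (SD, n = 3) FPKM, and only Psmd11 was lower in cachectic mice, where Psmd14 had 16.2 ± 1.39 (SD, n = 3) FPKM. The SDs of Psmd12, Psmd14 and Psmd6 overlapped in control mice. The summed level of the 8 lid genes was 228 to 240 FPKM in control mice and 192 to 203 FPKM in cachectic mice.

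**Figure D3:**
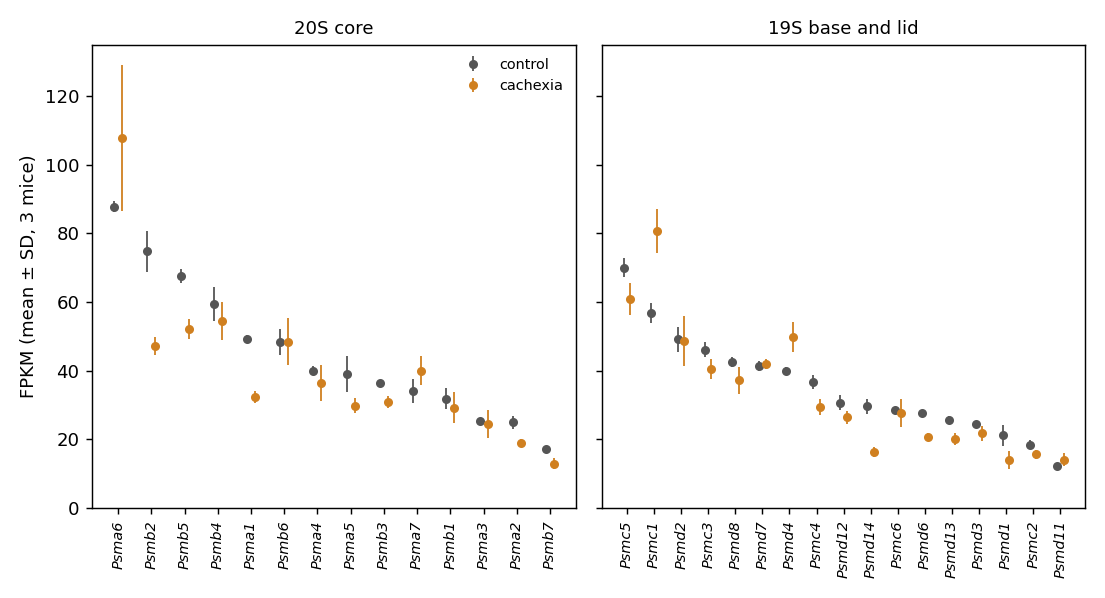
FPKM (y axis, mean ± SD of 3 mice) of the 20S core genes and of the 19S base and lid genes in control and cachectic mice, ordered by the control mean. Psma8 and Psmb11, which were near 0, are not drawn. Psma6 has the highest level in both groups, and Psmc1 moves above Psmc5 in cachectic mice.

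None of the 5 activator genes passed the test. Psme1 encodes the alpha subunit of PA28, a cap that opens the core without ATP. It had 98.3 ± 7.15 (SD, n = 3) CPM in control mice and 102 ± 10.1 (SD, n = 3) CPM in cachectic mice, and its groups overlapped. Psme2, the PA28 beta subunit, had a log2 fold change of 0.19 ± 0.23 (SE) and Psme2b, an intronless copy of it, one of -0.32 ± 0.19 (SE). Reads of these copies are hard to tell apart, so that the split between them is uncertain. Their summed level was 79.4 ± 2.43 (SD, n = 3) CPM in control mice and 80.7 ± 16.1 (SD, n = 3) CPM in cachectic mice. Psme3, the nuclear PA28 gamma, had 83.9, 91.5 and 93.0 CPM in the controls and 66.9, 74.5 and 70.9 CPM in the cachectic mice. Its groups were apart, with a log2 fold change of -0.34 ± 0.11 (SE, adjusted p of 0.0803 in edgeR). Psme4, which encodes PA200, stood at -0.27 ± 0.18 (SE), with groups that overlapped. Psmf1, which encodes the inhibitor PI31, had 36.2 ± 3.45 (SD, n = 3) CPM in control mice and 37.3 ± 2.91 (SD, n = 3) CPM in cachectic mice (95% confidence interval of the log2 fold change from -0.26 to 0.35).

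Of the 7 genes of assembly chaperones, 1 fell (14.3%), beside 8.63% of all genes tested. Psmd5, which holds part of the ATPase ring during assembly of the base and is absent from the finished particle, had 53.9, 53.8 and 57.0 CPM in the controls and 39.1, 41.9 and 33.9 CPM in the cachectic mice. The cachectic mice were all below the controls. The log2 fold change was -0.52 ± 0.12 (SE), with an adjusted p of 0.0271 (edgeR, Benjamini-Hochberg). Psmd5 lies on chromosome 2 from 34849734 to 34874968 on the minus strand and overlaps Cutal on the other strand, which had 134 counts over all mice beside 4890 for Psmd5. The other base chaperones stood at 0.36 for Psmd9 (adjusted p = 0.141, edgeR), which overlaps Hpd on the other strand, and at -0.14 for Psmd10. The chaperones of the 20S core, Psmg1, Psmg2, Psmg3 and Psmg4, had log2 fold changes of 0.02, 0.25, -0.07 and 0.26, and none passed. Psmg4 had the highest level of the chaperone genes, at 17.9 ± 1.94 (SD, n = 3) FPKM in control mice. Psmc3ip, the gene outside the complex, was low, at 2.24 ± 0.931 (SD, n = 3) CPM in control mice and 1.27 ± 0.280 (SD, n = 3) CPM in cachectic mice, and overlaps Mlx on the other strand. In all, 12 of the 47 members overlap another protein-coding gene. Psmc3 (with Slc39a13), Psma2 (with AW209491), Psma4 (with AY074887), Psme1 (with Emc9), Psme2b (with 9930111J21Rik1 and Gm12185) and Psmg3 (with Gm26938) are those not yet named, and their counts are uncertain to the extent that reads were shared.

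The calls differed in how they held when single choices were changed, over 16 other settings. Psmd14 passed in all 16 (adjusted p from 6.37e-07 to 0.0367 with edgeR, DESeq2 or limma). Psmb2 passed in 15 and was lost without control replicate 3 (adjusted p = 0.0565, edgeR). Psma1 passed in 13 and was lost without control replicate 2 (0.0581), control replicate 3 (0.0789) or cachexia replicate 1 (0.0504). Psmc1 passed in 11 and was lost without the same mice (0.106, 0.131 and 0.0544) and without the filter on low counts (0.051). Psmd5 passed in 10 and Psmd6 in 7. Psmd5 was lost without control replicate 1, 2 or 3 or cachexia replicate 1 (0.056, 0.0862, 0.117 and 0.0648), and Psmd6 without these and without cachexia replicate 2 (0.0895, 0.109, 0.148, 0.116 and 0.0809). With library totals in place of TMM factors both were lost (adjusted p = 0.0514 for Psmd5 and 0.104 for Psmd6, edgeR), and Psmd6 also without the filter (0.0902) and among protein-coding genes alone (0.0515). A replicate block took the calls of Psmc1, Psmd5 and Psmd6 (0.0737, 0.0665 and 0.0957). The direction of all 6 was the same in every setting. Adjusted p-values of Psma2, Psmb5, Psmd1 and Psme3, just above the threshold in edgeR, were under it in DESeq2, and Psmd1 also passed in edgeR without control replicate 1 (adjusted p = 0.0494) or without cachexia replicate 2 (0.0413).

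The immunoproteasome subunits, which the rule left out, replace the catalytic beta subunits where interferon acts and in immune cells. Psmb8, the counterpart of Psmb5, had 25.7, 21.8 and 24.3 CPM in the controls and 39.3, 35.3 and 38.4 CPM in the cachectic mice. It rose, with groups well apart and a log2 fold change of 0.65 ± 0.13 (SE), with an adjusted p of 0.0142 (edgeR, Benjamini-Hochberg), and the call was lost without control replicate 2 or 3 (0.065 and 0.0713). Psmb9, the counterpart of Psmb6, had a log2 fold change of 0.26 (adjusted p = 0.226, edgeR) and overlaps Tap1. Psmb10, the counterpart of Psmb7, had a log2 fold change of 0.35 (adjusted p = 0.137, edgeR). In each of the 3 genes the cachectic mice were above the control mice, as they were in 20.4% of all genes tested. Only Psmb8 passed the test. The FPKM of Psmb8 divided by that of Psmb5 in the same mouse was 0.135, 0.120 and 0.127 in control mice and 0.287, 0.229 and 0.262 in cachectic mice. The ratio of Psmb10 to Psmb7 was 1.15 ± 0.120 (SD, n = 3) in control mice and 1.89 ± 0.145 (SD, n = 3) in cachectic mice, and that of Psmb9 to Psmb6 overlapped between the groups. These ratios were chosen after the values were seen.

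**Figure D4:**
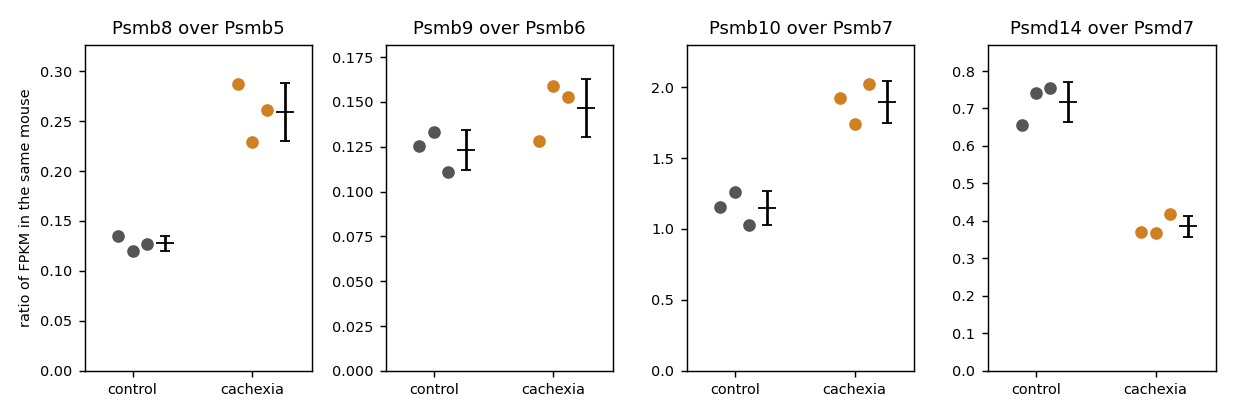
Ratio of FPKM within each mouse (y axes, from 0) for the 3 immunoproteasome subunits over their constitutive counterparts and for Psmd14 over Psmd7. Points are single mice, in the order of their replicate numbers, and bars are the mean ± SD of 3 mice. Psmb8 over Psmb5 lies between 0.120 and 0.135 in control mice and between 0.229 and 0.287 in cachectic mice, and Psmb9 over Psmb6 overlaps.

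Genes that work with the proteasome and are not matched by the rule were listed by function. Of 18 partners, 1 rose and 1 fell (5.56% each), shares below the 9.0% and 8.63% of all genes tested. Uchl5, a deubiquitinase bound to the 19S base, had 17.4, 18.2 and 18.6 CPM in the controls and 24.4, 35.0 and 30.2 CPM in the cachectic mice, a log2 fold change of 0.72 ± 0.16 (SE), with an adjusted p of 0.0226 (edgeR, Benjamini-Hochberg). Its groups were apart, and it was the deubiquitinase of the complex that rose beside Psmd14, which fell. Usp14, the other deubiquitinase that docks on the base, was at -0.15 and overlapped between groups. Zfand2a, a stress-induced protein of the 19S particle, fell, with 39.2 ± 5.48 (SD, n = 3) CPM in control mice and 24.2 ± 2.08 (SD, n = 3) CPM in cachectic mice (log2 fold change -0.69, adjusted p = 0.0196, edgeR). Pomp, which matures the 20S core, had 81.8 ± 2.10 (SD, n = 3) CPM in control mice and 73.2 ± 21.4 (SD, n = 3) CPM in cachectic mice, where cachexia replicate 3 had 97.1 CPM and the others 66.7 and 55.8 CPM. Uchl5 lost its call without any of the 3 control mice or cachexia replicate 2 (adjusted p from 0.0548 to 0.0871, edgeR), and Zfand2a without control replicate 3 (0.0895) or cachexia replicate 2 (0.0526).

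Among 11 regulators of proteasome genes, 4 rose (36.4%) and none fell, beside 9.0% and 8.63% of all genes tested. The list is short and was chosen with earlier results of these data known, and nothing is read from its share. Nfe2l1, the factor that raises proteasome genes when activity is short, had the highest FPKM of them in every mouse, and had 433, 444 and 472 CPM in control mice and 494, 446 and 358 CPM in cachectic mice. Its groups overlapped, with a log2 fold change of -0.05 ± 0.17 (SE, adjusted p of 0.853 in edgeR). Ddi2, the protease that activates the Nfe2l1 protein, had 52.3, 62.9 and 57.5 CPM in the controls and 89.2, 169 and 217 CPM in the cachectic mice. It rose, with a log2 fold change of 1.46 ± 0.30 (SE) and an adjusted p of 0.0161 (edgeR, Benjamini-Hochberg), and the cachectic mice varied widely. Rsc1a1, a gene within it, had no count. Stat3 rose by 1.06 (adjusted p = 0.0162, edgeR). Foxo3, a factor known for driving proteasome genes in muscle wasting, rose, with 51.3 ± 2.75 (SD, n = 3) CPM in control mice and 86.2 ± 19.2 (SD, n = 3) CPM in cachectic mice, a log2 fold change of 0.75 (adjusted p = 0.0267, edgeR), and Foxo4 rose by 0.69 (adjusted p = 0.0196, edgeR). Foxo1 stood at -0.21 and did not pass. The calls of these regulators were lost in several of the fits that left out 1 mouse. Fewer of all genes passed in each of these fits, and fewest without control replicate 3 or 2. Without control replicate 3 the adjusted p-values in edgeR were 0.0701 for Ddi2, 0.0745 for Stat3, 0.109 for Foxo3 and 0.0774 for Foxo4, with log2 fold changes of 1.46, 1.06, 0.71 and 0.71, and without control replicate 2 they were 0.0512, under the threshold, 0.0751 and 0.0747. Without control replicate 1 they were 0.061 for Foxo3 and 0.0503 for Foxo4, and Foxo3 also lost its call without cachexia replicate 2 (0.0664) or 3 (0.0578).

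**Figure D5:**
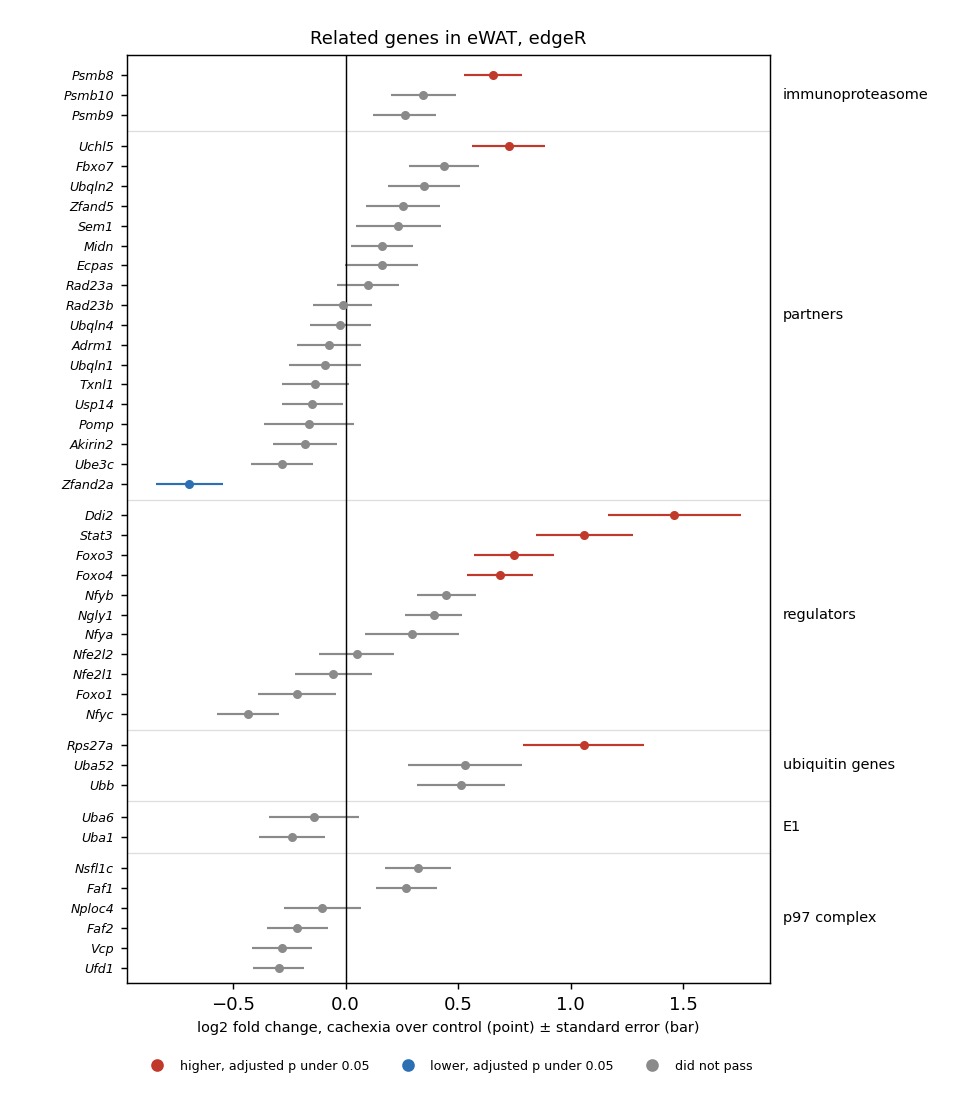
Log2 fold change (x axis, cachexia over control, 3 mice in each group) of the related genes that the rule did not take in, by list. Points are edgeR estimates and bars 1 standard error. Ddi2 (1.46) has the most positive estimate, Zfand2a (-0.69) the most negative, and Nfe2l1 (-0.05) lies at no change.

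Upstream of the proteasome, 1 of 3 ubiquitin genes rose (33.3%), beside 9.0% of all genes tested. This list is also short, and nothing is read from its share. Rps27a, which encodes ubiquitin fused to a ribosomal protein, had a log2 fold change of 1.06 ± 0.27 (SE), with an adjusted p of 0.0333 (edgeR, Benjamini-Hochberg). It has many near-identical processed copies in the mouse genome, so its count is uncertain, and the call was lost without control replicate 1, 2 or 3 or cachexia replicate 2 or 3 (adjusted p from 0.0504 to 0.0954) and with the replicate block (0.0737). Ubb, the most abundant of them, had a log2 fold change of 0.51 (adjusted p = 0.107, edgeR). Its groups did not overlap, and it passed in DESeq2 (adjusted p = 0.0255). Neither of the genes of the ubiquitin-activating enzyme passed, with -0.24 for Uba1 and -0.14 for Uba6. None of the 6 genes of the p97 complex, which extracts ubiquitinated proteins from membranes and assemblies, passed. Vcp, which encodes p97 itself, had a log2 fold change of -0.28 (adjusted p = 0.173, edgeR), with 309, 333 and 335 CPM in control mice and 268, 264 and 271 CPM in cachectic mice.

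The promoters of members that fell and of a member near the threshold are shown because Nfe2l1 and the factor that binds CCAAT are known to act on proteasome promoters. The sequences are the 250 bases before the RefSeq start (GRCm38.p6), which was matched for 39 of the 47 members. They read 5' to 3' on the strand of the gene. Capitals mark the motifs searched on both strands, the CCAAT box (CCAAT, or ATTGG on the other strand) bound by the factor of Nfya, Nfyb and Nfyc, and the core of the antioxidant response element (TGACNNNGC), which Nfe2l1 binds. The motifs did not overlap each other in these windows. The window of Psmd14 is chr2:61711444-61711693 on the plus strand, that of Psma1 is chr7:114276117-114276366 on the minus strand, and that of Psmb5 is chr14:54617996-54618245 on the minus strand.
Psmd14: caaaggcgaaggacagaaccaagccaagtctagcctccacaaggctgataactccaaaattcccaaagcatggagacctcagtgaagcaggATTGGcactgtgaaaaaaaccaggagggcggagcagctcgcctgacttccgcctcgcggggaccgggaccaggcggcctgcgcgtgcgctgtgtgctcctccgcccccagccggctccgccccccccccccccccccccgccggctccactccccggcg
Psma1: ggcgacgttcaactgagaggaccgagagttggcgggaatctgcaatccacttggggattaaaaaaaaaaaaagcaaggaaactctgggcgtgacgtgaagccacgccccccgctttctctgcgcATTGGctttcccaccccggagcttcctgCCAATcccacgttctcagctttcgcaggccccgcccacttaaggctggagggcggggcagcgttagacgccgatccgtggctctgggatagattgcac
Psmb5: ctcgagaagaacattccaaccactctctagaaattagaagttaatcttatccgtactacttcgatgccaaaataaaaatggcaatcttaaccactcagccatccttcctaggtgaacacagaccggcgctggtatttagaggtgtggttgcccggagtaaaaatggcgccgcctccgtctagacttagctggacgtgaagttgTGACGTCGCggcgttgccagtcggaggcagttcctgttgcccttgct
The CCAAT box was in the windows of 14 of the 39 members (35.9%) and of 37.5% of 27025 genes. The antioxidant response core was in those of 5 members (12.8%), namely Psmb5, Psmb6, Psmc6, Psmd9 and Psmd12, and of 11.5% of all genes. The GAS element (TTCNNNGAA), bound by STAT factors, was in that of 1 member, Psmg1 (2.56%), and of 8.13% of all genes. Among the 6 members that passed the test, none with a matched window held the antioxidant response core, and those of Psma1, Psmc1 and Psmd14 held a CCAAT box. A match of letters is a description and not a site of binding.

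Genes of other cell types moved between the groups in the same libraries. Of the 13 neutrophil markers, 11 were tested and 10 rose, the exception being Camp. Their summed level was 33.5, 51.2 and 34.8 CPM in the control mice and 296, 269 and 823 CPM in the cachectic mice, led by Mmp9 in each control mouse and by S100a9 in each cachectic mouse. Ly6g had no count in control mice and at most 0.614 CPM in cachectic mice, and Mpo was below 0.5 CPM in all. The markers did not rank the cachectic mice alike. S100a9 had 102, 79.1 and 339.8 CPM in them and was highest in cachexia replicate 3, whereas Csf3r had 30.5, 27.6 and 12.3 CPM and was lowest there, as were Mmp9, Elane and Ly6g. All 5 erythroid markers rose, led by Hbb-bs, at 170 ± 65.7 (SD, n = 3) CPM in control mice and 1311 ± 457 (SD, n = 3) CPM in cachectic mice. Of the 6 endothelial markers, Pecam1, Cdh5 and Cldn5 rose, and the summed level of the 6 was 1427 ± 31.8 (SD, n = 3) CPM in control mice and 2482 ± 474 (SD, n = 3) CPM in cachectic mice, with Cldn5 at the highest FPKM in every mouse. Of the 6 progenitor markers, Col1a1 and Pi16 fell and Ly6a rose. The highest mean FPKM of this list was that of Col1a1 in control mice (95.2) and that of Ly6a in cachectic mice (175). Of the 8 macrophage markers, Mrc1 fell and Cd163 rose. The highest mean FPKM of this list was that of C1qb in control mice (129) and that of C1qa in cachectic mice (149). Of the 8 adipocyte markers, Cidec rose and 7 did not pass. Plin1, Lpl and Retn were lower in all cachectic mice than in all control mice, with log2 fold changes of -1.44, -0.81 and -0.60 (adjusted p = 0.057, 0.137 and 0.165, edgeR). The summed level was 37978 ± 6790 (SD, n = 3) CPM in control mice and 39038 ± 6764 (SD, n = 3) CPM in cachectic mice. No mesothelial, B cell or T cell marker passed, and the summed level of the B cell list was 8.08, 6.13 and 10.3 CPM in the control mice and 3.15, 6.63 and 3.08 CPM in the cachectic mice, with overlap. The part of these cell types in the levels of the proteasome genes was not tested.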

How the data were processed

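RNA-seq of eWAT from 3 control and 3 cachectic mice was analyzed, grouped by the labels. The authors filtered reads for adapters, undetermined bases and quality, aligned the rest with Hisat2 (version not given in the sources used here) and counted them per gene with featureCounts 1.5.0-p3. They deposited raw counts and FPKM values per gene and mouse. The submitters' notes name mm9, but 98.3% of the genes found in GENCODE M21 have its GRCm38 coordinates, which are the ones given. Whether strand was used in counting is not stated. The authors' DESeq2 1.16.1 table of fold changes, p-values, 6 columns of per-sample values and 2 of group means was not used.

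The deposited counts were tested with edgeR 4.0.16 in R 4.3.3. Low genes were filtered by filterByExpr, TMM factors were applied, and the quasi-likelihood test had no covariates. P-values of the 16003 genes tested were adjusted by Benjamini-Hochberg and called at 0.05. Confidence intervals are 95% intervals from the t distribution with 7.87 degrees of freedom. Alternatives were RLE factors, library totals, no filter, at least 10 counts in every sample, protein-coding genes alone, DESeq2 1.42.0, limma-voom (limma 3.58.1), limma on log2 FPKM (pseudocount 1 or 0.1), a replicate block, and leaving out each mouse. Total counts of 14928766 to 18855546 and a biological coefficient of variation of 0.264 set the precision. The tests were checked on a single set of simulated counts with few changed genes. On it DESeq2 made a larger share of false calls than edgeR and limma-voom. No libraries were near-identical. The labels do not say more of the mice than their group and number, and p-values measure the spread between these samples. A two-sided exact permutation test of 3 against 3 mice cannot go below 0.1 and was not used.

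The members and lists were chosen with earlier results of these data known. From the list of ubiquitin genes, 1 gene is not reported here. Named are all members past the threshold, the extreme and most abundant members of each class, those not tested or overlapping other genes, members near the threshold, related genes past it, the immunoproteasome genes, Nfe2l1, Pomp and the leading marker genes. Other genes named (such as Usp14, Foxo1, Ubb, Vcp and Csf3r) and all ratios were chosen after their values were seen.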

Additional observations from a re-analysis of the deposited data

How the results depend on the processing

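Over 16 other settings no call of a member changed direction. The 5 members that fell in edgeR became 3 with library totals, 9 with DESeq2 and 3 with the replicate block, and ranged from 1 to 5 when each mouse was left out. The 1 member that rose became 0 without the filter and 0 with the replicate block, and ranged from 0 to 1 when each mouse was left out. Where the count of members that rose was 0, Psmc1 had an adjusted p in edgeR of 0.051 without the filter and 0.0737 with the block. It was 0.106 without control replicate 2, 0.131 without control replicate 3 and 0.0544 without cachexia replicate 1. The median log2 fold change of the members stayed between -0.20 and -0.11 in all settings, while that of all genes tested lay between -0.04 and 0.05, the latter with library totals. Over all genes, 1440 rose and 1381 fell in edgeR, 1955 and 1929 in DESeq2, 1477 and 1151 with library totals, 913 and 968 with the replicate block, and from 382 to 1197 and from 446 to 1142 when each mouse was left out. All these fits left out 1 mouse. The lowest counts came without control replicate 3 (382 rose) and control replicate 2 (600 rose), beside 1035 to 1197 without any other mouse. Control replicates 2 and 3 were the most alike pair of libraries. Their counts differed by a chi-square of 13 per degree of freedom, beside 48.35 or more in the other pairs. The part of this pair in the calls was not tested. The data showed no sign that the replicate numbers pair the mice. The deviations of same-numbered mice from their group means correlated by only 0.007, -0.018 and 0.013, and no sample correlated best with its own number. These values cannot exclude a shared cage or day, which the labels do not give. Depth and 3 mice in each group limit what can be seen for Psma8, Psmg3, Psmc3ip and Psmb11, which had few counts, and genes that overlap others or have near-identical copies cannot be separated.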
